A study of Mus musculus with 2 samples.

Results

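Seed matches of the microRNAs miR-23, miR-27 and miR-24 were described in RNA bound by the Argonaute protein Ago2 in mouse embryonic stem cells. They were the 7mer and 8mer entries of the deposited site table that begin with the reverse complement of bases 2 to 8 of mouse miR-23a-3p, miR-27a-3p or miR-24-3p. Of 203061 distinct 7mer and 8mer matches listed for 50 microRNA seeds, 18746 belonged to these 3 seeds. The miR-23 seed gave 5217 matches, the miR-27 seed 5964 and the miR-24 seed 7565. A 7mer that lay inside an 8mer of the same seed (1677 cases) was then counted once, as the 8mer. This left 17069 sites in 7488 genes, of which 7037 lay in the 3′ UTRs of 4500 genes.

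Ago2 contacts were mapped by iCLIP, in which ultraviolet light links a protein to the RNA it touches and the attached fragments are sequenced. Both cell lines, TT-FHAgo2 and TT-Ago2, expressed human Ago2 from a doxycycline-inducible construct as their single Argonaute family member. In TT-FHAgo2 the protein carried a FLAG-HA tag, and in TT-Ago2, the control for the tag-directed immunoprecipitation, it had none. Each line is clonal and was kept in leukemia inhibitory factor and 0.1 µg/mL doxycycline, with 2.5 µg/mL for the last 24 h to reach wildtype Ago2 levels. The design held 1 library per line, which leaves the spread between replicates unknown, and no test was made. Intervals are exact (Clopper-Pearson) 95% binomial intervals and cover counting error only, since the reads may include PCR copies.

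The 3 microRNAs are cut from a single primary transcript, and mammals carry the cluster as a pair of copies on separate chromosomes. A mature microRNA guides Argonaute to messenger RNAs mainly through pairing of its seed, the bases just after its first one, and the bound messenger is usually repressed. A seed match followed by an adenosine in the messenger, the 8mer, is generally the strongest kind of site, and the 7mer and 6mer are weaker. Members of the cluster are best known for roles in endothelium, muscle, blood and fat cells.

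The mature sequences are shown, from RefSeq, because the members are defined by their bases 2 to 8, which are in capitals. On GRCm38.p6 chromosome 8, plus strand, 3 of them lie within one stretch: miR-23a-3p at chr8:84208563-84208583, miR-27a-3p at chr8:84208727-84208747 and miR-24-3p at chr8:84208875-84208896. miR-27b-3p lies at chr13:63300760-63300780, and miR-24-3p has a second copy at chr13:63301251-63301272, both on the plus strand.
miR-23a-3p: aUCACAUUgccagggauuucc
miR-27a-3p: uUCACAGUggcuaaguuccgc
miR-27b-3p: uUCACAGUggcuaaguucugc
miR-24-3p: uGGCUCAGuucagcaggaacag

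The matches searched in the messenger strand were the following 8mers, each of which is the 7mer with an A added at its 3′ end.
miR-23 match: AATGTGAA
miR-27 match: ACTGTGAA
miR-24 match: CTGAGCCA

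The miR-23 and miR-27 7mers differ at 1 base, A2C, counted from 1 at the 5′ end of the match with the miR-23 base first. The miR-24 7mer differs from each of them at all 7 positions. The miR-24 7mer holds 5 G or C bases, the miR-27 7mer 3 and the miR-23 7mer 2. In the RefSeq table, miR-27a-3p and miR-27b-3p share bases 2 to 8 and cannot be told apart through their 7mers. miR-24-3p shares them with 4 less known entries, miR-5124b, miR-6369, miR-6410 and miR-6413. For miR-23 the RefSeq table held only miR-23a-3p, which does not exclude other microRNAs with these bases, as from the second cluster copy. Levels of the microRNAs themselves were not analysed here.

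Depth and cell identity apply to every value that follows. Coverage per site came from a tagged library of 789000 reads, in which 1 read equals 1.27 rpm (reads scaled to library size). Transcript levels are isoform FPKM (fragments scaled to transcript length and library size), and the site table holds transcripts of at least 0.1 FPKM. All 8 embryonic stem cell markers were listed, at 40.3 to 1655 FPKM, while 2 of 4 primitive endoderm markers were listed at up to 0.618 FPKM and 1 of 4 fibroblast markers at 1.89 FPKM. Of trophectoderm markers 3 of 4 were listed, at 0.957 to 13.9 FPKM, and of neural markers 3 of 4, at 0.551 to 40.1 FPKM.

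In 3′ UTRs, where microRNA sites mostly act, reads covered the miR-27 and miR-24 matches more often than control 8mers, and the miR-23 matches less clearly so. Of 2129 miR-23 sites 308 held at least 1 read (14.5%, 13.0 to 16). Of 2276 miR-27 sites 415 did (18.2%, 16.7 to 19.9), and of 2632 miR-24 sites 464 did (17.6%, 16.2 to 19.1). The background was 20.1% over the 7mers and 8mers of all 50 listed seeds and 11.5% over control 8mers. Controls are the other deposited 8mers, which extend none of the 50 listed 7mers. They may include seed matches of other microRNAs. All 3 seeds thus lay above the control share and below the share of the listed seeds as a whole. The miR-23 interval did not overlap that of miR-27 or miR-24, whose own intervals overlapped each other.

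Because coverage follows transcript level, each share was also divided by the share that control 8mers gave in that region at a like FPKM, in strata 0.5 log2 units wide. This ratio was 1.21 for miR-23 (1.08 to 1.34), 1.56 for miR-27 (1.43 to 1.70) and 1.54 for miR-24 (1.41 to 1.67). Its interval is the binomial interval of the share divided by the control share. Among the 50 listed seeds the ratio ran from 0.773 to 4.97 with a median of 1.48, and 42 lay above 1. miR-27 ranked 21, miR-24 22 and miR-23 37, so the first pair sat near the middle of the listed seeds and miR-23 in the lower part. The share of control 8mers with a read moved with base composition. It was 10.6% for controls with as many G and C bases as the miR-23 match, 11.2% for those like miR-27 and 12.7% for those like miR-24. Against these controls the ratio was 1.34 for miR-23 (1.20 to 1.49), 1.63 for miR-27 and 1.37 for miR-24 (1.26 to 1.49), so the miR-23 and miR-24 intervals then overlapped. By number of 3′ UTR sites the order was different, with miR-24 ranked 5, miR-27 6 and miR-23 9.

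**Figure D1:**
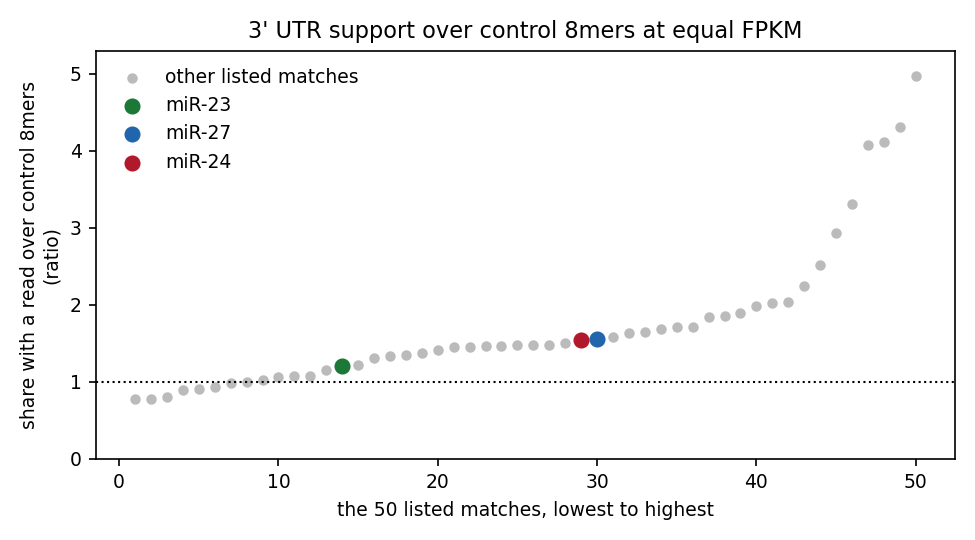
Ratio of the share of 3′ UTR sites with a read to that of control 8mers at equal FPKM (vertical axis) for each of the 50 listed seed 7mers, ordered by rank, with the 3 seeds of the cluster marked. The miR-27 (1.56) and miR-24 (1.54) points lie close to the median of 1.48, and miR-23 (1.21) lies below it.

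In 3′ UTRs the share with a read was highest at 8mers for miR-23 and miR-27 and at 7mers for miR-24, with 7mer and 8mer intervals that overlapped in each. Within miR-27, 15.8% of 7569 6mers, 16.9% of 1569 7mers (15.1 to 18.8) and 21.2% of 707 8mers (18.3 to 24.4) held a read. Within miR-23 the shares were 12.6% of 4611 6mers, 13.6% of 1333 7mers and 16% of 796 8mers (7mer interval 11.8 to 15.5, 8mer interval 13.5 to 18.7). For miR-24 they were 15.9% of 3616 6mers, 18.8% of 1657 7mers (17.0 to 20.8) and 15.6% of 975 8mers (13.4 to 18.0). The order was not kept everywhere. Among miR-27 sites with no other listed match within 50 nt, 6mers included, 14.3% of 7mers and 13.9% of 8mers held a read. In coding sequence the miR-23 shares were 9.03% of 6mers, 6.63% of 7mers and 6.42% of 8mers.

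Set against control 8mers, the 8mer ratio divided by the 7mer ratio was 1.27 for miR-27, 1.13 for miR-23 and 0.846 for miR-24. These ranked 9, 20 and 42 among the 50 seeds, whose median was 1.07, and 21 seeds had a value below 1. A miR-24 7mer more often overlapped a match of another listed seed. Of all miR-24 sites 374 did (14.2%), against 100 miR-27 sites (4.39%) and 48 miR-23 sites (2.25%). The most frequent partner of miR-24 was GAGCCTG, at 310 sites, of which 15.5% held a read. Among miR-24 sites that overlapped no listed match the order was kept, with a read at 19.7% of 1303 7mers (17.6 to 22.0) and 15.8% of 955 8mers (13.6 to 18.3).

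**Figure D2:**
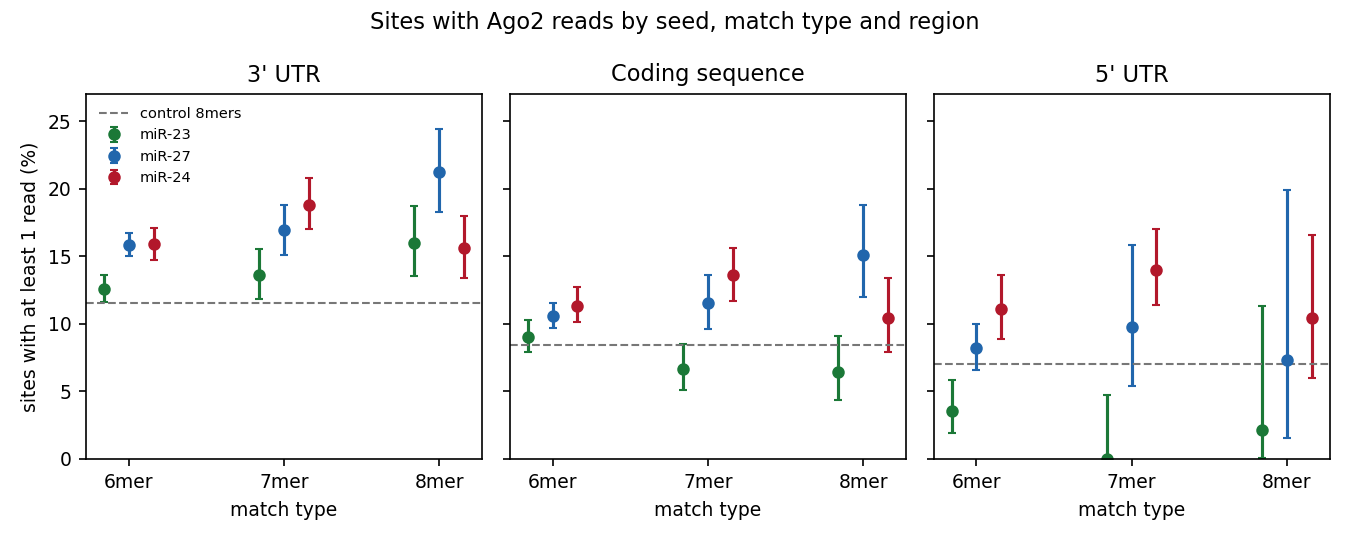
Percent of sites with at least 1 read (vertical axis) by match type and transcript region for each seed, with control 8mers for comparison and exact 95% binomial intervals as bars. In 3′ UTRs the miR-27 share goes from 16.9% at 7mers to 21.2% at 8mers, and the miR-24 share from 18.8% to 15.6%.

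In coding sequence the seeds separated further. A read was present at 189 of 1503 miR-27 sites (12.6%, 10.9 to 14.4) and at 223 of 1764 miR-24 sites (12.6%, 11.1 to 14.3), against 13.2% over all listed seeds and 8.46% over control 8mers. Their ratios at equal FPKM were 1.55 and 1.6, close to those in 3′ UTRs. Of 1312 miR-23 sites only 86 held a read (6.55%, 5.28 to 8.03), a ratio of 0.843 with an interval of 0.679 to 1.03.

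In 5′ UTRs the miR-24 seed had 757 sites, against 185 for miR-27 and 123 for miR-23. Reads covered 101 of the miR-24 sites (13.3%, 11 to 16), a ratio of 1.85 (1.53 to 2.22), where all listed seeds gave 10.9% and control 8mers 7.01%. For miR-27 the count was 17 (9.19%, 5.44 to 14.3). For miR-23 a single site held 1 read (0.813%, 0.0206 to 4.45), and 0 of 76 7mers did, which allows a share of up to 3.95% by the limit of 3 counts and 4.74% by the exact interval. Of the 757 miR-24 sites in 5′ UTRs 33 held 2 or more reads (4.36%), against 1.44% of control 8mers. None of the 757 lay in an enriched cluster. Of control 8mers there only 37 of 36937 did (0.100%), so the absence is near that share. In long noncoding RNAs reads were rare, at 5 of 1102 miR-23, 8 of 1235 miR-27 and 10 of 1560 miR-24 sites, where control 8mers gave 0.505% and all listed seeds 0.841%. In pseudogenes 4 of 191 miR-23, 3 of 149 miR-27 and 3 of 151 miR-24 sites held a read, against 1.31% of control 8mers and 2.07% of all listed matches.

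Coverage rose with transcript level for all 3 seeds. From 0.1 to below 1 FPKM the shares of 3′ UTR sites with a read were alike, at 6.11% for miR-23, 6.64% for miR-27 and 6.23% for miR-24, where control 8mers gave 4.24%. From 1 to below 10 FPKM they were 11.7%, 16.6% and 16.7%, against 10.8% of controls. From 10 to below 100 FPKM they reached 25.8% (22.2 to 29.6), 32.1% (28.3 to 36.0) and 31.1% (27.6 to 34.8), against 19.9%. At 100 FPKM and more, where each seed had 41 to 44 sites, the shares were 34.1%, 39.0% and 37.2%, with wide intervals that held the control share of 29.2%.

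**Figure D3:**
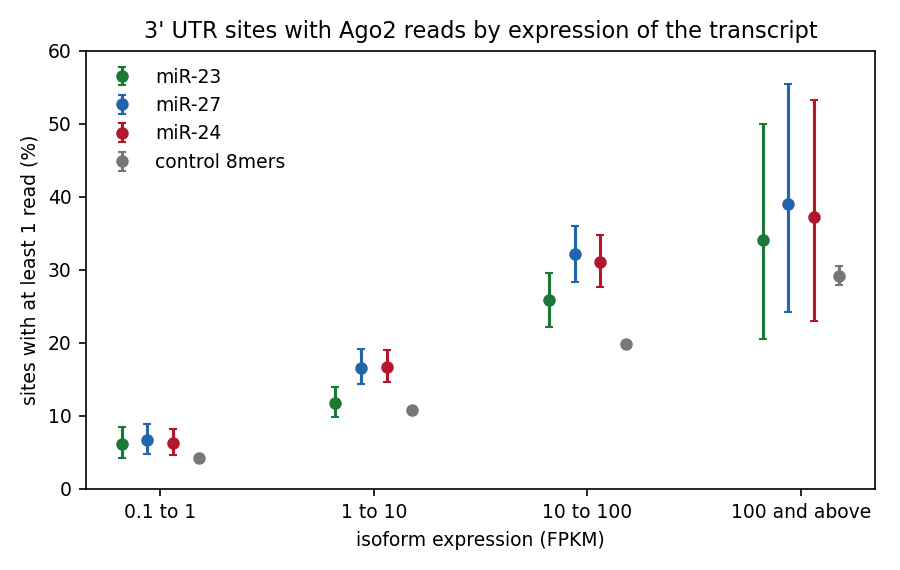
Percent of 3′ UTR sites with a read (vertical axis) in 4 classes of isoform FPKM for the 3 seeds and control 8mers, with exact 95% binomial intervals as bars. All 4 series rise from the lowest class, where the seeds lie at 6.11% to 6.64%, to the highest, where they lie at 34.1% to 39.0%.

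The seeds differed in how conserved their matches were. A PhastCons score, the deposited measure of conservation between species from 0 to 1, of at least 0.9 was found at 32.0% of miR-23, 31.8% of miR-27 and 14.2% of miR-24 sites in 3′ UTRs, against 17.7% of control 8mers. Among 8mers the shares were 41.6%, 41.9% and 13.4%. The miR-24 matches were thus less often conserved than the control 8mers, and those of miR-23 and miR-27 more often.

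Conserved sites held reads more often. At a score of at least 0.9 the share with a read was 21.6% of 682 miR-23 sites (18.5 to 24.8), 25.7% of 723 miR-27 sites (22.6 to 29.1) and 28.1% of 374 miR-24 sites (23.6 to 32.9). At a score under 0.1 it was 10.2% of 1002, 13.3% of 1188 and 15.4% of 1703. Control 8mers had the same gradient, from 9.48% under 0.1 to 17.8% at 0.9 and above.

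Against control 8mers of the same conservation class and FPKM stratum, the miR-24 ratio was 1.58 at conserved sites (1.33 to 1.85) and 1.6 at sites under 0.1 (1.43 to 1.79). For miR-27 it was 1.49 (1.31 to 1.68) and 1.39 (1.19 to 1.6). For miR-23 it was 1.15 (0.987 to 1.32) and 1.09 (0.898 to 1.31), and 1.07 (0.828 to 1.36) between the classes. Each of the 3 miR-23 intervals held 1, while all 3 ratios lay above 1. No ratio over the 3 classes together was computed. Coverage of miR-23 matches above that of control 8mers was thus neither shown nor excluded within a class.

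**Figure D4:**
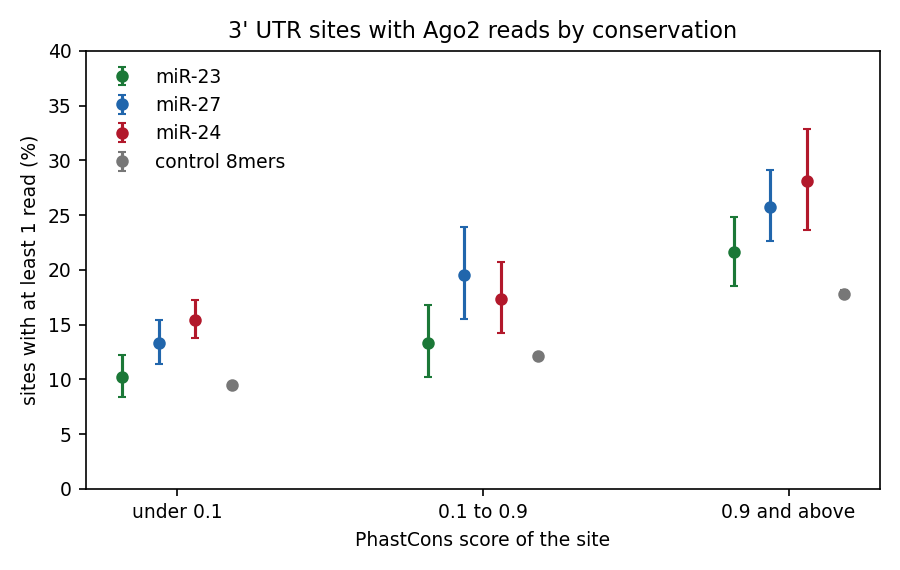
Percent of 3′ UTR sites with a read (vertical axis) by PhastCons class for the 3 seeds and control 8mers, with exact 95% binomial intervals as bars. Conserved sites lie highest in every series, at 21.6% (miR-23), 25.7% (miR-27), 28.1% (miR-24) and 17.8% (control).

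Most matches lay near others. Another listed match stood within 50 nt of 79.8% of miR-23, 83.9% of miR-27 and 87.4% of miR-24 sites in 3′ UTRs, so a read at a member may belong to a neighbouring match. Of the 431 miR-23 sites with no such neighbour 9.74% held a read (7.11 to 12.9), of 366 miR-27 sites 14.2% (10.8 to 18.2) and of 332 miR-24 sites 15.7% (11.9 to 20). Their ratios to all control 8mers were 0.812 for miR-23 (0.593 to 1.08), 1.20 for miR-27 (0.915 to 1.54) and 1.32 for miR-24 (1.01 to 1.69). Control 8mers also held fewer reads when no listed match was near (8.58%, against 12.3%). With isolated sites set against isolated controls, the ratios were 1.08 for miR-23 (0.790 to 1.44), 1.59 for miR-27 and 1.75 for miR-24.

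Reads per site were few. Of the 3′ UTR sites with a read, 64.6% of miR-23, 58.6% of miR-27 and 62.7% of miR-24 sites had 1 read, and the median was 1 in each. Sites with 5 or more reads made up 8.77%, 10.4% and 10.8% of those with a read, against 7.29% of control 8mers. The 10 sites with the most reads held 108 of 598 miR-23 reads (18.1%), 177 of 962 miR-27 reads (18.4%) and 236 of 1106 miR-24 reads (21.3%). Requiring 2 reads left 109 (5.12%), 172 (7.56%) and 173 (6.57%) sites, against 9.52% of all listed matches and 3.83% of control 8mers.

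The miR-23 sites with the most reads lay in genes of varied function. Positions are mm9, 1-based. The highest was an 8mer in the 3′ UTR of Cggbp1, which encodes a protein that binds CGG repeats, at chr16:64859078-64859085 on the plus strand, with 18 reads (22.8 rpm) at 27 FPKM and a PhastCons score that rounds to 1. Next came an 8mer of Cs, the citrate synthase of the Krebs cycle, at chr10:127798975-127798982, plus strand, with 14 reads at 111 FPKM. A 7mer of Lefty1, a secreted inhibitor of Nodal signalling, at chr1:182868266-182868272, plus strand, also held 14 reads, at 32.2 FPKM, and its score was 0.00430. An 8mer of Snx5, a sorting nexin of endosomes, held 12 reads at 80.2 FPKM, and a 7mer of Fbxo10, an F-box protein, 10 reads at 2.45 FPKM.

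Other miR-23 sites of the first 10 were in D930015E06Rik (9 reads at 0.126 FPKM), Zwint (8), AI848100 (8), Fam73b (8) and Syce2 (7). Zwint is a kinetochore protein and Syce2 a component of the synaptonemal complex. These 10 sites were 5 7mers and 5 8mers, and 6 were conserved at 0.9 or more. Of all miR-23 sites in 3′ UTRs, 37.4% were 8mers and 32.0% were so conserved, and 147 of the 308 with a read were. All 10 lay in an enriched cluster, and all 10 had another listed match within 50 nt. Over all miR-23 sites in 3′ UTRs these shares were 0.986% and 79.8%. Site reads and clusters come from the same tagged library. For each seed, sites picked by their reads therefore tend to lie in clusters, and the count is no independent support. The next site in the order, a 7mer of the deadenylase gene Cnot6l, also held 7 reads.

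The miR-27 sites reached higher counts. An 8mer of Obfc2a, which encodes a single-stranded DNA-binding protein, at chr1:51528004-51528011 on the minus strand, held 34 reads (43.1 rpm) at 12.1 FPKM with a score of 0.997. A 7mer of Sbno1, at chr5:124821339-124821345, minus strand, held 28 reads at 3.06 FPKM, with a score of 0.00140. A 7mer of Scd2, a stearoyl-CoA desaturase of fatty acid synthesis, at chr19:44380935-44380941, plus strand, held 22 reads at 47.8 FPKM, with a score of 0.997. Of the 10 sites, 3 thus stood at 20 reads or more, a level that no miR-23 site in a 3′ UTR reached.

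An 8mer of Gfpt2, an enzyme of the hexosamine pathway, held 16 reads at 61.6 FPKM. The remaining miR-27 sites were in Ngfrap1 (15 reads, at 331 FPKM), 4632434I11Rik (15), the cyclophilin gene Ppig (13), the Akt phosphatase gene Phlpp2 (12), the cytokine signalling suppressor gene Socs6 (11) and Gon4l (11). Of the 10 sites 6 were 7mers and 6 were conserved at 0.9 or more. Of all 2276 miR-27 sites in 3′ UTRs, 1569 were 7mers and 31.8% were so conserved, and 186 of the 415 with a read were. The site in 4632434I11Rik was the 1 of the 10 outside an enriched cluster. The next in order was a 7mer of N4bp1 with 10 reads at 0.625 FPKM.

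Of the 10 miR-24 sites with the most reads, 9 were 7mers, as were 1657 of all 2632 miR-24 sites in 3′ UTRs and 312 of the 464 with a read. A 7mer of 4933426M11Rik, at chr12:81979395-81979401 on the plus strand, held 74 reads (93.8 rpm) at 12.6 FPKM, the most of any 3′ UTR member, with a score of 0.00130. A 7mer of Angel1, at chr12:88041760-88041766, minus strand, held 31 reads at 4.36 FPKM and was fully conserved by its score of 1. A 7mer of Eif2b2, a subunit of the exchange factor for the initiation factor eIF2, at chr12:86567186-86567192, plus strand, held 29 reads at 38.7 FPKM with a score of 6.00e-04. The 8mer among them, in Ints3, an Integrator subunit, at chr3:90195461-90195468, minus strand, held 26 reads at 29.5 FPKM.

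Csnk1d, a casein kinase that acts in the circadian clock, had 18 reads at a 7mer that overlaps another listed match, and Mtmr12 had 13 at such a 7mer. Zfp871 had 13 reads, the actin-bundling protein gene Fscn1 11, the mitochondrial chaperone gene Dnaja3 11 and the alanyl-tRNA synthetase gene Aars 10. Scores under 0.1 were found at 7 of the 10 miR-24 sites, against 3 of 10 for each of miR-23 and miR-27. Over all 3′ UTR sites the share under 0.1 was 64.7% for miR-24, 47.1% for miR-23 and 52.2% for miR-27, so the miR-24 count lay near the share of that seed. The Fscn1 site was the 1 among all 30 with no other listed match within 50 nt, and it was conserved (1) in a transcript of 140 FPKM. Of all 3′ UTR sites of the 3 seeds, 84.0% had such a neighbour. The next in order was a 7mer of Pex19 with 10 reads. Without the 4933426M11Rik site the miR-24 seed had 39.2 reads per 100 sites in place of 42.0, beside 42.3 for miR-27, 28.1 for miR-23 and 24.4 for control 8mers.

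Outside 3′ UTRs, the member with the most reads was a miR-23 7mer in a long noncoding RNA at chr1:115800848-115800854, minus strand, with 56 of the 61 reads at miR-23 sites in such RNAs, and it lay in no enriched cluster. In coding sequence, miR-23 had 10 reads at AW555464 and 7 at Kpnb1, which encodes importin beta. For miR-27, coding sites of Eif6, a ribosome biogenesis factor, and of Topors held 8 and 7 reads. For miR-24 they were coding sites of the splicing factor gene Son (12 reads), of Nfkbie (12), an inhibitor of NF-κB, and of Bcat1 (11), a branched-chain aminotransferase.

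Some conserved 8mers of abundant transcripts held no read. For miR-23 these were sites of the chromatin protein gene Hmgb2 (344 FPKM), Marcksl1 (274) and Caprin1 (235). For miR-27 they were sites of the actin-sequestering protein gene Tmsb10 (455 FPKM), the proteasome subunit gene Psma1 (131) and Rpn1 (70.1), a subunit of the oligosaccharyltransferase. For miR-24 they were sites of the chaperonin subunit gene Cct3 (307 FPKM), Marcksl1 (274) and the coactivator gene Sub1 (154). Among conserved 8mers at 10 FPKM or more, 40 of 116 miR-23 (34.5%), 34 of 81 miR-27 (42.0%) and 19 of 48 miR-24 sites (39.6%) held a read, against 26.4% of control 8mers.

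Enriched clusters, in which the authors found more tagged than untagged reads at p under 0.05, covered few members. In 3′ UTRs they overlapped 21 miR-23 sites (0.986%, 0.612 to 1.5), 31 miR-27 sites (1.36%, 0.927 to 1.93) and 44 miR-24 sites (1.67%, 1.22 to 2.24). The background was 2.89% over all listed matches and 0.686% over control 8mers. At equal FPKM the ratios to control were 1.36, 1.96 and 2.44. Split by type, the miR-24 7mers lay in clusters at 35 of 1657 sites (2.11%) and the 8mers at 9 of 975 (0.923%).

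Over all regions 115 clusters covered a member, 27 with a miR-23, 36 with a miR-27 and 54 with a miR-24 match. Together they held 1178 tagged reads against 17 untagged, the latter implied by the authors' enrichment values, whose scaling is unknown. Some of these clusters overlap one another, so a read may be counted more than once. The reads at a site can exceed the tagged reads of its cluster, as in Obfc2a (34 against 23) and 4933426M11Rik (74 against 68). Site and cluster counts are thus not on the same footing. No untagged read was implied for 101 of the 115 clusters (87.8%), beside 85.7% of all 5993 clusters used. No other listed match lay in 14 of the miR-23, 18 of the miR-27 and 28 of the miR-24 clusters. The p-values that follow compare the reads of the tagged and the untagged library and not replicated conditions.

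For miR-24, the authors' deposited table gave the 4933426M11Rik cluster, at chr12:81979340-81979448, 68 tagged reads, a log2 enrichment of 5.11 and p = 1.19e-19. It held no other listed match. In the authors' deposited table the Angel1 cluster, also without another listed match, had 28 reads (log2 4.86, p = 3.73e-09). Clusters over Eif2b2 (27 reads), Ints3 (25) and Csnk1d (18) also held matches of other listed seeds.

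For miR-27, the lowest p in the authors' deposited table was that of a cluster in the 3′ UTR of Fam126b, at chr1:58586203-58586289, with 51 tagged reads, a log2 enrichment of 4.12 and p = 1.59e-13. The miR-27 7mer in it had a site count of 6 reads, and the cluster also held the listed match GTGCAAT. In the authors' deposited table Slc6a6, the taurine transporter, had 28 reads (p = 3.73e-09), Sbno1 24, Gon4l 21 and Scd2 20 (p = 9.54e-07). Each of these also held a match of another listed seed, so none of the 5 clusters was covered by miR-27 alone.

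For miR-23, Lefty1 had the lowest p in the authors' deposited table, with 37 tagged reads, a log2 enrichment of 3.66 and p = 1.42e-09 at chr1:182868251-182868373. That cluster also held AGCACTT, AGCACTTA and TGCACTG. The D930015E06Rik cluster, with 15 reads, and the Cggbp1 cluster, with 16, held no other listed match. In the authors' deposited table their p-values were 3.05e-05 and 1e-04. Zwint (16 reads) and Cs (12) completed the 5, and both held another listed match.

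The listed crosslink positions, those with the most crosslinks in a cluster, lay mostly upstream of or on the match. In clusters over exactly 1 member that list such positions, 116 were found in 85 clusters, and distance was counted from the first base of the match along the transcript. Some of these clusters overlap, so a position can be counted more than once, as in Mtmr12 and Phlpp2. For miR-24, 25 of 49 positions (51%) lay 1 to 20 nt upstream of the match, with a median of -6.00. For miR-27, 11 of 38 did (28.9%), with a median of -6.50, and for miR-23 7 of 29 (24.1%), with a median of -1. Clusters of the other listed seeds gave 44.3% of 1334 positions in that window. In clusters with no other listed match the shares were 53.8% of 26 for miR-24, 18.8% of 16 for miR-27 and 33.3% of 15 for miR-23. The file does not state from which end positions are counted. They were read from the lower genomic coordinate, since their median lay at 26.2% of the cluster width on the plus strand and 69.7% on the minus strand.

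**Figure D5:**
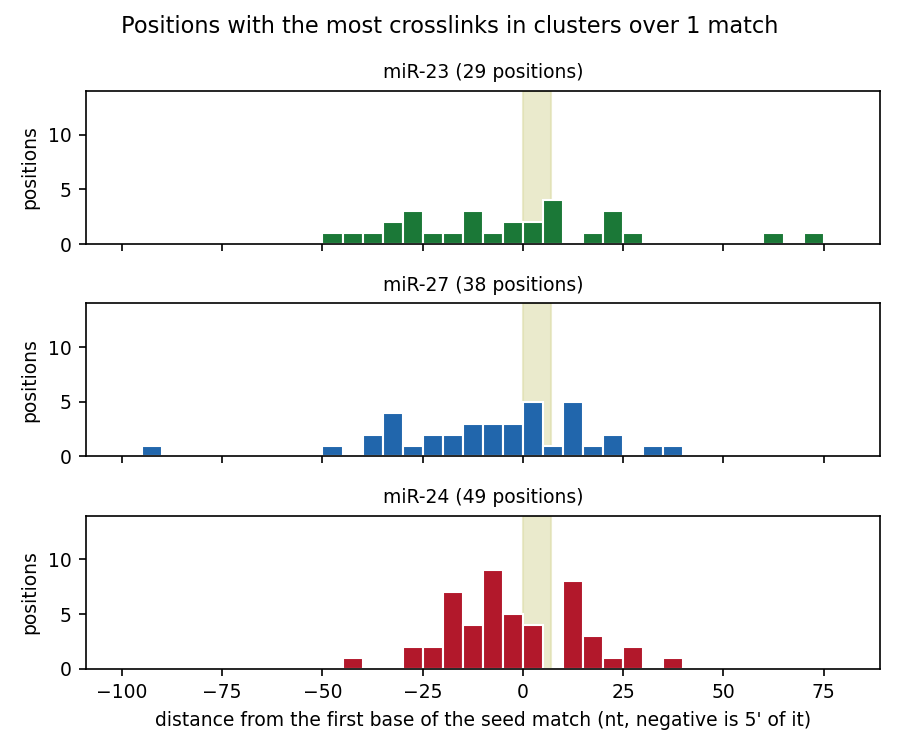
Number of crosslink positions (vertical axis) by distance in nt from the first base of the seed match (horizontal axis, upstream negative) for clusters over exactly 1 member of each seed. Of the 49 miR-24 positions 25 lie 1 to 20 nt upstream, against 11 of 38 for miR-27 and 7 of 29 for miR-23. A position in overlapping clusters can count more than once.

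The sets of genes with a match of each seed overlapped in part. Among all 15271 genes listed, noncoding ones included, 1735 had a 3′ UTR match of miR-23, 1921 of miR-27 and 2088 of miR-24. The overlaps that follow were larger than these shares, and the length of the 3′ UTR was not accounted for. Of the 1735 genes with a miR-23 3′ UTR match, 462 (26.6%) also had a miR-27 match and 427 (24.6%) a miR-24 match. The 462 genes were 24.0% of the 1921 miR-27 genes. Both miR-27 and miR-24 matches were present in 497 genes, 25.9% of the miR-27 and 23.8% of the 2088 miR-24 genes. These counts each include the 142 genes with matches of all 3 seeds, of which 59 (41.5%) had a read at 1 or more of them. Per site, however, coverage was 13.7% (11.1 to 16.8) in these genes, 16.1% (14.7 to 17.6) in genes with 2 seeds and 17.8% (16.6 to 19.0) in genes with 1. The larger share of genes with a read thus went with more sites per gene and not with more coverage per site.

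Reads at matches of all 3 seeds were found in 3 genes. Zwint had 5 sites, with 8 reads at miR-23, 8 at miR-27 and 1 at miR-24. N4bp1, a protein that binds the ubiquitin ligase Nedd4, had 1 read at miR-23, 10 at miR-27 and 2 at miR-24, at 0.625 FPKM. Cecr2, a chromatin remodelling factor, had 10 sites and 5 reads, of which 2 were at miR-23, 1 at miR-27 and 2 at miR-24.

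Matches of different seeds of the cluster stood within 50 nt of each other in 116 pairs, of which 32 had a read at either match and 19 at both. For single 3′ UTR sites the share with a read was 14.5% to 18.2% by seed and 11.5% for control 8mers. A pair holds 2 sites, so these shares are not directly comparable with the pair counts, and no share was computed for pairs of control 8mers. At such distances a single read can cover both matches. In Zwint a miR-23 8mer (8 reads) and a miR-27 7mer (8 reads) stood 14 nt apart on chr10:72137560-72137588. In Nup210, a nuclear pore protein, a miR-27 7mer (7 reads) lay between a pair of miR-24 7mers with 9 and 6 reads. In Tnpo1, the nuclear import receptor transportin, a fully conserved miR-23 8mer (4 reads) and miR-27 8mer (5 reads) overlapped by 2 nt on chr13:99612962-99612975. In Socs6 a miR-27 7mer (11 reads) stood 46 nt from a miR-23 8mer (1 read). A pair in Tiprl, of a miR-24 7mer (6 reads) and a miR-27 7mer (1 read), was the last of the 6 with the most reads.

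Textbook targets were described through lists of genes, whose share with a read is set beside that of all genes with a match. Over all genes it was 16.5% for miR-23, 20.5% for miR-27, 20.7% for miR-24 and 22.9% for any of the 3. An enriched cluster lay over a member in 91 of the 4500 genes (2.02%). Of the 8 miR-24 targets with a 3′ UTR match 6 had a read, and the median of these 8 genes was 9.76 FPKM, against 5.84 for all genes with a miR-24 match, each gene taken at its highest isoform. H2afx, the histone variant of DNA damage foci, had 2 reads at an 8mer and 6 at a 7mer, the latter conserved (0.961) and under an enriched cluster of 5 tagged reads. Cdkn1b, the cell cycle inhibitor p27, had 4 reads at a conserved 8mer. Acvr1b, an activin receptor, had 4 reads at a 7mer and 0 at an 8mer. The protease gene Furin had 3 reads, and the kinase gene Pim1 had a match and no read.

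Of 12 miR-27 targets with a match 3 had a read, among them Foxo1 (4 reads) and Nfe2l2 (1). Foxo1 is a transcription factor of the insulin pathway and Nfe2l2 a regulator of the oxidative stress response. Phb, Grb2 and Spry2 had a miR-27 8mer each and no read, in isoforms of 57.3, 33.1 and 25.4 FPKM. Of 15 miR-23 targets with a match 5 had a read, among them the caspase inhibitor gene Xiap (2 reads at a conserved 8mer), Irf1 (2), Spry2 (1) and Stx12 (1). The deacetylase gene Sirt1 and the kinase gene Chuk had a match and no read. Each of these target lists holds few genes, and no site in the miR-23 and miR-27 lists lay under an enriched cluster.

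Among the pathways of embryonic stem cells, 1 of 9 genes of LIF, activin and BMP signalling with a match had a read, which was Acvr1b. Jak1, Tgfbr1 and Smad1, which has 4 matches, had none. Of 11 genes of FGF and ERK signalling 1 had a read, at a miR-23 8mer of Spry2, an inhibitor of the pathway. Grb2 and Nras, in isoforms of 33.1 and 31.4 FPKM, had matches and no read. The median of the genes with a match was 7.35 FPKM in the first list and 21.3 FPKM in the second.

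Of 8 pluripotency factors with a match 4 had a read. The median of the 8 genes was 47.3 FPKM, against 6.08 for all genes with a match. Tfcp2l1 had 3 of its 4 miR-24 sites covered, with 2 reads at each, at 56.7 FPKM. Sall4 had 3 reads and Rest 1 at miR-27 sites, and Foxo1, counted above, is also on this list. Zfp42, with a miR-23 8mer, Nanog, with a miR-24 8mer, and Esrrb, with a miR-24 7mer, had none, and the isoforms that hold these matches were at 494, 220 and 6.11 FPKM.

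Of 9 genes of the cell cycle and replication 7 had a read, and the median of the 9 was 38.0 FPKM against 6.08 for all genes with a match, each at its highest isoform. Rrm2, a subunit of ribonucleotide reductase, had 7 reads at a miR-27 7mer with a score of 0, inside an enriched cluster. The replicative helicase gene Mcm2 had 3 at a miR-24 7mer, and the cyclin gene Ccnd1 1 read at each of 2 miR-23 7mers. The kinase gene Aurka and E2f3 had none.

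Of 11 apoptosis genes 5 had a read, and the median of the 11 was 9.86 FPKM against 6.08 for all genes with a match. Mcl1, an inhibitor of cell death, had 3 reads at each of 2 miR-23 sites, at 149 FPKM. The cell death activators Bbc3 and Bcl2l11 had 3 reads each, at a miR-27 8mer and at miR-24 8mers. Bak1, Bid and Bcl2l1 each had a miR-24 7mer and no read.

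Of 8 genes of the microRNA pathway itself 4 had a read. The 8 genes held 20 sites, of which 5 had a read. Their median was 17.1 FPKM, against 6.08 for all genes with a match. Tnrc6c and Tnrc6a, partners of Argonaute in silencing, had 4 reads each at miR-23 sites. Drosha, the nuclease that cuts primary microRNAs, had 2 at a miR-27 7mer, and Eif2c2, the mouse gene of Ago2, 2 over its 3 miR-27 7mers. Tarbp2, Dgcr8 and Eif2c3 had matches and no read. Both lines expressed human Ago2 from the construct as their single Argonaute family member, so Eif2c2 and Eif2c3 transcripts were not its source.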

How the data were processed

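Seed matches were taken from the site table of the tagged library, whose coverage the authors deposited in rpm, reads scaled to library size. Divided by 1.27 rpm, the worth of 1 read, all 1641948 entries (100%) gave an integer to within 0.001, which recovers the whole reads. Isoform FPKM was computed by the authors from a source not given in the sources used here. PhastCons is a conservation score per the file headers. The deposited log2 coverage, adjusted for expression by the authors, was not used in the text. In the deposited cluster list, peak height is a signal in reads, and tagged reads, log2 enrichment and binomial p-value are joined in 1 field of other text, as are crosslink positions. The submitters' processing notes name Bowtie, TopHat, mm9 and NCBIM37, without versions. Neither the cluster caller nor the rule that gives reads to a site is stated in these sources.

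Members were found by bases 2 to 8 of RefSeq miRNAs and made distinct by chromosome, strand, start and stop. A position listed several times took its highest FPKM. Control 8mers (966, at 724083 sites) extend none of the 50 listed 7mers, and sites overlapping a listed match were left out. They are the remaining 8mers that the authors deposited and were not chosen to lack seed matches of other microRNAs. The ratios are thus relative to a background that may itself be bound. Support meant at least 1 read. Clusters overlapped a site by at least 1 nt on the same strand. Of 6211 clusters, 216 that cross splice junctions were dropped, as were 2 of more than 200 nt. Untagged reads were those that return the authors' log2 within 0.005 in all 6211 clusters. Scripts used Python 3.11.15, pandas 2.3.3 and scipy 1.17.1, and the ratio was tested on simulated data.

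The members and lists were chosen with earlier results of these data known. Genes named are, per seed, the 10 3′ UTR sites with the most reads, the 5 clusters of lowest p, the 3 conserved unread 8mers of highest FPKM, and the 3 sites with the most reads outside 3′ UTRs. Also named are genes read at all 3 seeds, the 6 pairs with the most reads, and in each list up to 4 genes with the most reads and up to 3 of highest FPKM without one. The first site below each 10 is given too. Some genes chosen in this way are not reported here. A list's median FPKM uses the highest value given for each gene in the table. Alternatives were at least 2 reads, at least 1 FPKM, wider FPKM strata, the lowest FPKM of a position, nested 7mers kept, 1 site per gene, isolated sites, other control sets and other cluster rules.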

Additional observations from a re-analysis of the deposited data

How the results depend on the processing

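Of 51 values recomputed under an alternative, 26 moved by less than their counting interval, 24 moved by more and 1 changed sides of 1. The last was the miR-23 ratio to control 8mers, 1.21 as reported and 0.812 over sites with no other listed match within 50 nt. The same sites gave shares with a read of 9.74%, 14.2% and 15.7% for miR-23, miR-27 and miR-24, ratios of 1.20 for miR-27 and 1.32 for miR-24, and a miR-27 cluster share of 0.820%. With 2 reads required the shares were 5.12%, 7.56% and 6.57%, and the ratios of miR-27 and miR-24 were 1.94 and 1.73. At 1 FPKM or more the shares were 17.3%, 22.7% and 22.4%. Against control 8mers without a listed match nearby the ratios were 1.59, 2.08 and 2.04. Chosen after seeing the data, controls of equal G and C content gave 1.34 for miR-23 and 1.37 for miR-24, and isolated sites against isolated controls gave 1.08 and 1.75. Cluster shares at the authors' p under 0.01 were 0.611% for miR-23 and 0.836% for miR-24, and with the whole site inside the cluster 0.611% for miR-23. The cause was not tested. miR-23 had the lowest of the 3 ratios under each setting tried, by least with controls of equal G and C content. No paired analysis was possible because each group had 1 library, and no replicate could be left out. With 789000 reads and a median of 1 read at sites that had any, absence of a read at a single site says little about binding there.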
